A study of Mus musculus with 10 samples.

Results

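The genes described here are 10 genes of MHC class I peptide loading and the immunoproteasome: Tapbp, Tap1, Tap2, B2m, Nlrc5, Psmb8, Psmb9, Psmb10, H2-K1 and H2-D1. They were chosen by name, as the rows of a mouse RNA-seq count table whose Entrez gene identifiers map to those symbols, and are 10 of the 24454 genes in that table. No measured value entered that choice. All 10 had a row, and 8 had enough counts to be tested.

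The libraries came from NMuMG/E9, which is subclone 9 of NMuMG, a mouse epithelial line from normal mammary gland, so that every group is 1 clone of 1 line. Cells of every group received 20 nM of an siRNA, either a control (siCtr) or one against Irf1 (siIrf1), the transcript of interferon regulatory factor 1. In the TGFbeta groups, recombinant human TGFbeta1 at 2 ng/ml was present for the last 2 d before harvest on day 3, to induce epithelial-mesenchymal transition (EMT). In the 0 d groups the cytokine was left out and the harvest was also on day 3. There were 2 libraries of siCtr 0 d (replicates 1 and 3), 3 of siIrf1 0 d (1 to 3), 2 of siCtr TGFbeta (2 and 3) and 3 of siIrf1 TGFbeta (1 to 3). No group lacks an siRNA, and no added interferon is named for any group.

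MHC class I molecules show short peptides from inside the cell to cytotoxic T cells. The proteasome cuts the peptides, and its standard catalytic subunits can be replaced by the immunoproteasome subunits encoded by Psmb8, Psmb9 and Psmb10. The transporter made of Tap1 and Tap2 brings the peptides into the endoplasmic reticulum, where tapasin (Tapbp) holds the transporter next to an empty class I molecule, itself a heavy chain (H2-K1 or H2-D1) paired with beta-2-microglobulin (B2m). Many of these genes are induced by interferons through factors that include Irf1, and Nlrc5 is a transactivator of class I genes.

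In GRCm38.p6, 7 of the 10 genes lie on chromosome 17, which carries the mouse MHC. H2-K1 (Entrez 14972) spans 33996012 to 34000619, Tapbp (21356) 33919478 to 33929290 and H2-D1 (14964) 35263094 to 35267497. Between them lie Psmb9 (16912, 34182030 to 34187330), Tap1 (21354, 34187556 to 34197225), Psmb8 (16913, 34198195 to 34201454) and Tap2 (21355, 34204479 to 34216321). Psmb10 (19171, 105935728 to 105938392) and Nlrc5 (434341, 94434335 to 94527272) are on chromosome 8, and B2m (12010, 122147687 to 122153082) is on chromosome 2. Psmb9 and Tap1 are transcribed away from each other, with 225 bases between their annotated starts.

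Promoter sequences are shown because, in the main fit, some of these genes fell together with the Irf1 siRNA while B2m was not called. That contrast depends on the setting. With trends of level with gene length and GC content removed, B2m was called lower at 0 d and Tap1 and H2-D1 were not called. RefSeq windows (GRCm38.p6, 250 bases before the start and 50 from it) were found for 8 of the 10, with no entry for Tap2 or Nlrc5. The first sequence is the stretch before the start of B2m (chr2:122147437-122147686, + strand). Capitals mark a match to the core of the interferon-stimulated response element, searched as 2 runs of GAAA with any 2 bases between them.
B2m: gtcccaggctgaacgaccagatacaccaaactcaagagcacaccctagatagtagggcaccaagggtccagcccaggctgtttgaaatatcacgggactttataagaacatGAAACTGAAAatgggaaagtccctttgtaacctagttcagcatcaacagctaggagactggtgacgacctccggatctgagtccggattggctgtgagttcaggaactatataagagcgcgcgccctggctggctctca

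The heavy chain genes are shown side by side because their values moved almost in parallel. The H2-K1 stretch is chr17:34000429-34000458 (- strand) and the H2-D1 stretch chr17:35262923-35262952 (+ strand). The first capitals mark the kappaB pattern, searched with these letters, and the last a match, on the opposite strand, to GAANNGAAA, a shorter interferon-type pattern that was added after the sequences had been seen. The 2 stretches are identical at 29 of 30 bases, and the longest run of bases that the windows before the starts share is 47.
H2-K1: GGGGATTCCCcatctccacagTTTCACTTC
H2-D1: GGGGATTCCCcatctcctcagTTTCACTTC

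The last stretch begins at the first base between Psmb9 and Tap1 (chr17:34187331-34187360, + strand), and capitals mark a CCAAT box, a letter pattern that factor NF-Y binds.
Psmb9 and Tap1: tttCCAATcagcggctgcgcgcggtgcagg

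All motifs were searched on both strands, and the same search was run on all 32851 mouse windows of that length. The interferon-stimulated response element core was found in 1 of the 8 windows of these genes (B2m) and in 3.44% of all windows. The gamma-activated site pattern TTCNNNGAA was found in 1 (Psmb8) and in 8.30% of all windows. The kappaB pattern was found in 2 (H2-K1 and H2-D1) and in 0.107% of all windows, and GAANNGAAA in the same 2 and in 7.52%. The stretches of H2-K1 and H2-D1 are near copies, so these are not 2 separate finds. CCAAT was found in 6 and in 37.4% of all windows, and the cAMP response element TGACGTCA in none of the 8 and in 1.79%. The CCAAT matches of Psmb9 and Tap1 are the same site, which lies in both windows. These are matches of letters in a window and were not tested for binding.

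The libraries held 27547649 to 67301646 counts, and 13135 genes were tested in 1 edgeR fit of all 10 libraries. Levels are CPM (counts scaled by edgeR to the effective library size), or CPM per kilobase of gene length (RPKM) where genes are compared with each other. Each change is a log2 ratio from edgeR ± its SE, its p is adjusted over all 13135 genes, and "rose" and "fell" are used where that p is under 0.05. The labels do not say that replicates were separate cultures, so a p-value measures only the spread between these libraries, which may be technical. Libraries also differed by a GC index, which is the log2 difference in level between genes of low and of high GC content. Values were -1.37 and -0.61 for siCtr 0 d against 0.19 to 0.93 in siIrf1 0 d, and -0.46 in both siCtr TGFbeta libraries against -0.39 to 0.77 in siIrf1 TGFbeta. Transcripts of B2m have a GC content of 41.2% and those of the other 9 genes 52.5 to 57.1%. Values with each library's length and GC trend removed therefore stand beside the calls they end and the changes they move most. Such values were read for the 10 genes, Irf1 and, in some comparisons, a part of the related genes. Other called genes of the lists, Psmd3, Psmc6, Psme4 and Hsp90b1 among them, were not examined under that setting. In the comparison of siRNAs at 0 d, removal of that trend also moved the median of all genes from -0.03 to 0.14. Of the other cell types, leukocyte markers summed to 27.8 to 36.2 CPM in siCtr 0 d, 39.6 to 46.5 in siIrf1 0 d, 38.6 to 41.0 in siCtr TGFbeta and 42.3 to 58.2 in siIrf1 TGFbeta, with Cd3e and Adgre1 at 0 in every library. Fibroblast markers summed to 0.424 to 0.589 CPM in siCtr 0 d, 0.837 to 0.950 in siIrf1 0 d, 34.4 to 38.9 in siCtr TGFbeta and 27.1 to 31.4 in siIrf1 TGFbeta, with Col1a2 and Lum at 0 in every library. Endothelial markers summed to 0 to 0.158 CPM in the 0 d libraries, 5.16 to 5.92 in siCtr TGFbeta and 1.52 to 1.86 in siIrf1 TGFbeta, with Emcn at 0 in every library. Class II antigen-presenting cell markers summed to 1.97 to 2.43 CPM in siCtr 0 d, 1.77 to 2.56 in siIrf1 0 d, 4.43 to 5.60 in siCtr TGFbeta and 4.30 to 4.99 in siIrf1 TGFbeta, with H2-Aa at 0 in every library. Epithelial markers summed to 6620 to 13631 CPM, although Cldn7 was at 0 in every library and Cldn3 and Epcam in 3 of the 4 groups. The part of these markers in the results was not tested. In such bulk RNA, fewer cells of a type and less RNA per cell cannot be told apart.

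The siRNA target was checked first. Irf1 was at 148 and 129 CPM in siCtr 0 d and at 56.4, 64.1 and 57.7 CPM in siIrf1 0 d. Under TGFbeta its levels were 106 and 112 CPM in siCtr and 36.5, 46.2 and 41.0 CPM in siIrf1. Every siIrf1 library was below every siCtr library. The difference at 0 d was -1.22, and -0.73 with the length and GC trend removed.

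Per length, the 10 genes covered a wide range in siCtr 0 d cells. Tapbp was highest at 90.5 ± 7.28 RPKM (SD, n = 2), followed by B2m at 57.0 ± 31.3, H2-K1 at 29.2 ± 1.26, Psmb10 at 28.3 ± 2.89 and H2-D1 at 10.4 ± 0.436 RPKM. Tap2 stood at 2.03 ± 0.418, Psmb9 at 0.922 ± 0.132 and Tap1 at 0.732 ± 0.0185 RPKM. H2-K1 and Psmb10 did not differ beyond their spread and the 2 libraries of B2m lay far apart, at 34.9 and 79.1 RPKM, both below the lower Tapbp library at 85.4 RPKM. Psmb8 and Nlrc5 were at the limit of detection. The order changed with TGFbeta: in siCtr TGFbeta cells B2m was highest at 196 ± 5.96 RPKM and Tapbp next at 68.1 ± 5.36 RPKM.

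**Figure D1:**
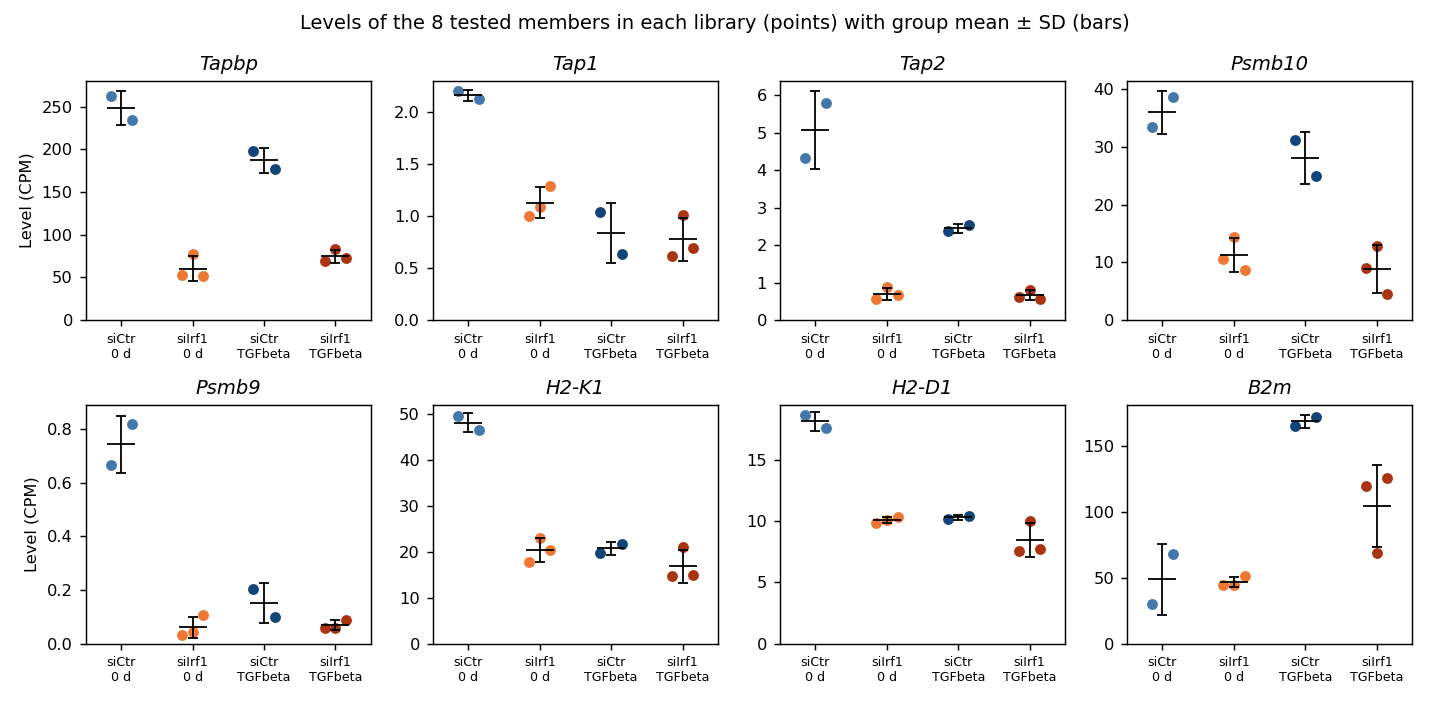
Level (CPM, linear axes from 0) of the 8 tested genes in each of the 10 libraries, 1 panel per gene. Points are libraries and bars the group mean ± SD. Tapbp lies at 235 and 263 CPM in siCtr 0 d and at 51.1 to 76.9 CPM in siIrf1 0 d, while B2m is highest in siCtr TGFbeta at 165 and 172 CPM.

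The knockdown without TGFbeta showed how the class I genes stood in epithelial cells with less Irf1. Of the 10 genes 7 fell (Tapbp, Tap1, Tap2, Psmb9, Psmb10, H2-K1 and H2-D1), none rose, B2m was not called and Psmb8 and Nlrc5 had too few counts to test. Over all genes tested, 15.5% fell and 16.3% rose in that comparison. Psmb9 passed the filter on low counts only through its siCtr 0 d libraries, and was called without the filter too (-3.51, adjusted p = 6.03e-04). The count was 5 to 7 when single libraries were left out, and 6 with the length and GC trend removed, where B2m was called and Tap1 and H2-D1 were not. That removal also changed the whole comparison from 2136 higher and 2039 lower genes to 3047 and 1851.

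Tapbp encodes tapasin, which bridges the peptide transporter and the class I heavy chain. It was at 263 and 235 CPM in siCtr 0 d and at 52.8, 76.9 and 51.1 CPM in siIrf1 0 d. The groups did not overlap, and the mean went from 249 ± 20.0 to 60.3 ± 14.4 CPM. Tapbp fell 4.13-fold (-2.05 ± 0.194, adjusted p = 2.35e-04). Under TGFbeta, Tapbp was at 198 and 177 CPM in siCtr and at 68.7, 83.1 and 72.5 CPM in siIrf1. These groups did not overlap either, and Tapbp fell 2.50-fold (-1.32 ± 0.192, adjusted p = 0.00157). Both falls were called in all 18 alternatives run, and ranged from -2.26 to -1.41 without TGFbeta and from -1.44 to -0.96 with it.

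Tap2, the transporter subunit that pairs with Tap1, fell by more. It was at 4.32 and 5.79 CPM in siCtr 0 d and at 0.565, 0.882 and 0.660 CPM in siIrf1 0 d. The groups were far apart, and Tap2 fell 7.12-fold (-2.83 ± 0.276, adjusted p = 2.75e-04), with -2.24 when the length and GC trend was removed. Under TGFbeta, Tap2 was at 2.36 and 2.53 CPM in siCtr and at 0.620, 0.810 and 0.572 CPM in siIrf1, again with no overlap. Tap2 fell 3.59-fold there (-1.85 ± 0.276, adjusted p = 0.00187). Both falls were called in all 18 alternatives run.

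Tap1, the other transporter subunit, was at 2.20 and 2.12 CPM in siCtr 0 d and at 1.00, 1.09 and 1.29 CPM in siIrf1 0 d. The groups did not overlap, and Tap1 fell 1.91-fold (-0.93 ± 0.303, adjusted p = 0.0400). That call was lost in 10 of the 17 alternatives that tested it, among them removal of the trend with length and GC (-0.32 ± 0.273, adjusted p = 0.370). It was also lost on leaving out any single library of siCtr 0 d (-0.92 without replicate 1 and -0.89 without 3), of siIrf1 0 d (-0.86, -0.90 and -1.04 without 1, 2 and 3) or of siCtr TGFbeta (-0.91 without 2 or without 3). With TGFbeta, Tap1 was at 1.04 and 0.633 CPM in siCtr and at 0.620, 1.01 and 0.692 CPM in siIrf1. Those groups overlapped, and the difference was -0.11 ± 0.321 (adjusted p = 0.853).

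The transporter subunits thus stood in different proportions in the siRNA groups. Per length, Tap2 was 2.33 and 3.23 times as high as Tap1 in siCtr 0 d and 0.666, 0.963 and 0.604 times as high in siIrf1 0 d. With TGFbeta the ratio was 2.69 and 4.74 in siCtr and 1.18, 0.948 and 0.979 in siIrf1. Every siCtr library was above every siIrf1 library. Gene models of antisense transcripts overlap Tapbp and Tap2, Tap1 overlaps Psmb9 in GENCODE, and the use of strand in counting is not stated, so reads of overlapping genes cannot be told apart.

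H2-K1 and H2-D1 encode the classical heavy chains of the K and D loci. H2-K1 was at 49.6 and 46.7 CPM in siCtr 0 d and at 17.8, 23.1 and 20.4 CPM in siIrf1 0 d, with no overlap. It fell 2.36-fold (-1.24 ± 0.204, adjusted p = 0.00239), a call kept in all 18 alternatives, with -0.69 ± 0.144 when the length and GC trend was removed. H2-D1 was at 18.7 and 17.6 CPM in siCtr 0 d and at 9.83, 10.1 and 10.3 CPM in siIrf1 0 d. It fell 1.80-fold (-0.84 ± 0.189, adjusted p = 0.00910). The H2-D1 call was lost without siCtr 0 d replicate 1 (-0.81) and on removal of the length and GC trend (-0.24 ± 0.158, adjusted p = 0.257). H2 genes are close copies of each other, so reads could be split between them and their values are uncertain.

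With TGFbeta present, neither heavy chain was called between the siRNAs. H2-K1 was at 19.8 and 21.7 CPM in siCtr and at 14.7, 21.1 and 14.9 CPM in siIrf1 (-0.30 ± 0.206, adjusted p = 0.380). H2-D1 was at 10.1 and 10.4 CPM in siCtr and at 7.56, 10.0 and 7.70 CPM in siIrf1 (-0.28 ± 0.191, adjusted p = 0.358). Replicate 2 of siIrf1 TGFbeta lay near the siCtr values for both genes. It was also the siIrf1 library with the lowest GC index (-0.39, against 0.66 and 0.77 in the other two). H2-K1 and H2-D1 were uncalled without that library too.

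B2m, the light chain shared by all class I molecules, gave no call. It was at 29.9 and 67.9 CPM in siCtr 0 d and at 44.3, 44.4 and 51.1 CPM in siIrf1 0 d. The siIrf1 libraries lay between the siCtr libraries, and the difference was -0.07 ± 0.333 (adjusted p = 0.886). The difference was 0.71 without siCtr 0 d replicate 3, and -0.55 without replicate 1. After removal of the length and GC trend B2m was lower in siIrf1 and called (-1.06 ± 0.220, adjusted p = 0.00537). Under TGFbeta, B2m was at 165 and 172 CPM in siCtr and at 119, 68.8 and 125 CPM in siIrf1, where the groups did not overlap. That difference was -0.69 ± 0.328 (adjusted p = 0.188), and it was called without siCtr 0 d replicate 1 (-0.74) or 3 (-0.74) and with the trend removed (-1.28 ± 0.218, adjusted p = 0.00221).

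Psmb10, the immunoproteasome subunit that takes the place of Psmb7, fell in both conditions. It was at 33.4 and 38.6 CPM in siCtr 0 d and at 10.5, 14.5 and 8.71 CPM in siIrf1 0 d, with no overlap. Psmb10 fell 3.20-fold (-1.68 ± 0.374, adjusted p = 0.00933), a call kept in all 18 alternatives, with -1.09 when the trend was removed. Under TGFbeta, Psmb10 was at 31.3 and 24.9 CPM in siCtr and at 9.03, 12.8 and 4.48 CPM in siIrf1, again with no overlap. It fell 3.18-fold (-1.67 ± 0.374, adjusted p = 0.0131), a call lost without siCtr TGFbeta replicate 2 (-1.55). The 2 falls differed by 0.0083 ± 0.539 on the log2 scale (adjusted p = 0.999). An antisense gene model overlaps Psmb10.

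Psmb9, which takes the place of Psmb6, was a rare transcript. The siCtr 0 d libraries had 17 and 27 raw counts of it, and the siIrf1 0 d libraries 1, 2 and 4. As levels these were 0.668 and 0.819 CPM against 0.0314, 0.0452 and 0.106 CPM. The groups did not overlap, and Psmb9 fell 11.6-fold (-3.54 ± 0.499, adjusted p = 0.00123), a call kept in all 17 alternatives that tested it, with -4.14 without siIrf1 0 d replicate 3. With TGFbeta the counts were 11 and 3 in siCtr and 2, 4 and 3 in siIrf1. The levels, 0.205 and 0.0999 CPM against 0.0590, 0.0578 and 0.0903 CPM, parted narrowly, and the difference was -1.24 ± 0.574 (adjusted p = 0.172).

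Psmb8, which takes the place of Psmb5, and the transactivator Nlrc5 were barely detected. Psmb8 had 1 count in each siCtr 0 d library, 1 count in siIrf1 0 d replicate 3 and none in the other 7 libraries. Nlrc5 had 2 counts in siIrf1 0 d replicate 1, 1 count in each of 5 libraries and none in the other 4. A count of 0 over siCtr TGFbeta allows a level of up to 0.0358 CPM for either gene, and over siIrf1 TGFbeta up to 0.0220 CPM for Psmb8 (3 counts over the group, counting error only). No difference was detectable for these genes at this depth.

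**Figure D2:**
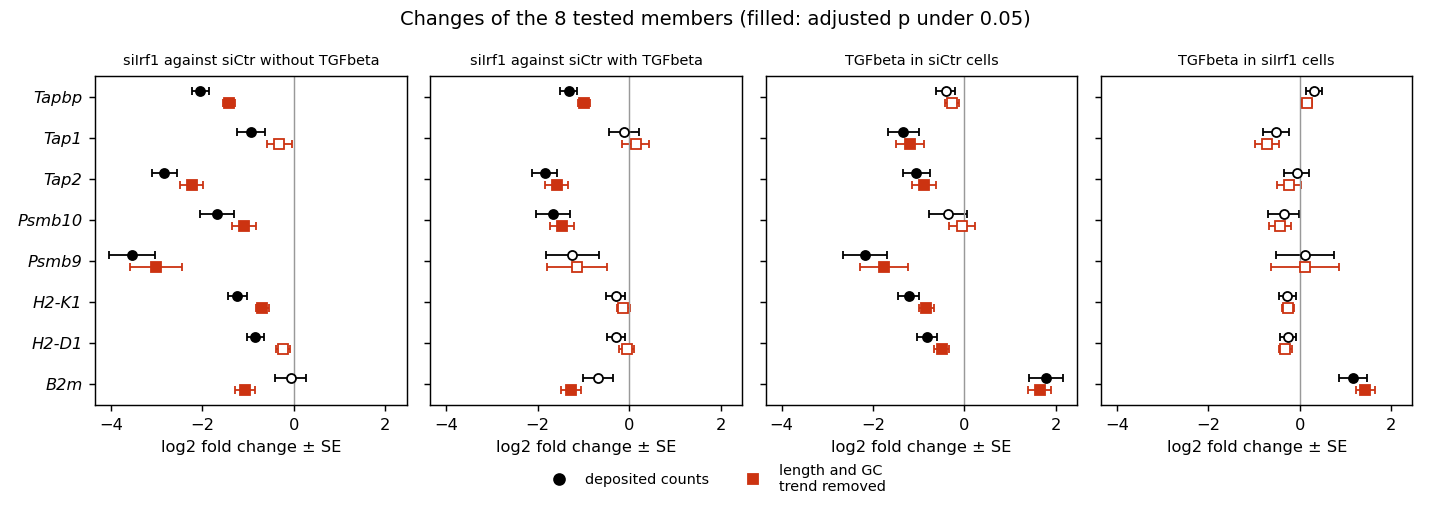
Log2 fold changes ± SE of the 8 tested genes in 4 comparisons, from the deposited counts (black circles) and with the length and GC trend removed (red squares). Filled symbols have an adjusted p under 0.05. Tapbp and Tap2 are filled in both siRNA panels under both settings, and B2m in the siRNA panels only with the trend removed.

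The standard catalytic subunits that the 3 immunoproteasome subunits replace were not called in any comparison. In siCtr 0 d they stood far above their counterparts per length: Psmb5 at 81.4 ± 5.58, Psmb6 at 249 ± 29.8 and Psmb7 at 348 ± 126 RPKM. Their differences with the siRNA were -0.35 ± 0.210, -0.24 ± 0.195 and -0.34 ± 0.235 without TGFbeta (adjusted p = 0.223 to 0.367). Under TGFbeta they were -0.25 ± 0.210, -0.10 ± 0.196 and -0.23 ± 0.235. After removal of the length and GC trend, Psmb7 was called lower at 0 d (-1.56 ± 0.300, adjusted p = 0.00394), while Psmb5 and Psmb6 were at 0.30 and 0.21 and uncalled.

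Per length, Psmb10 stood to Psmb7 at a ratio of 0.0601 and 0.117 in the siCtr 0 d libraries and of 0.0262, 0.0513 and 0.0240 in siIrf1 0 d. Under TGFbeta the ratio was 0.114 and 0.0675 in siCtr and 0.0330, 0.0459 and 0.0165 in siIrf1. Each siIrf1 library was below each siCtr library of either condition, and the 2 libraries of each siCtr group lay far apart. These ratios keep the length and GC trend. With it removed, the 0 d differences with the siRNA were -1.09 for Psmb10 and -1.56 for Psmb7, so Psmb7 was then lower by more. Under TGFbeta they were -1.47 for Psmb10 and -0.83 for Psmb7. The order of the siRNA groups at 0 d therefore depends on that setting.

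The proteasome activator and assembly list held 9 genes, all tested. Without TGFbeta 1 rose (Psme4) and 2 fell, Psme1 and Psme2, the subunits of the interferon-inducible activator PA28. Over all genes tested 16.3% rose and 15.5% fell. The list's median was -0.21 beside -0.03 for all genes. Psme1 was at 83.4 and 71.3 CPM in siCtr 0 d and at 30.6, 42.0 and 31.8 CPM in siIrf1 0 d, and fell (-1.15 ± 0.192, adjusted p = 0.00252), with -0.53 when the length and GC trend was removed. Psme2 was at 30.6 and 20.4 CPM in siCtr 0 d and at 13.6, 12.7 and 12.6 CPM in siIrf1 0 d, and fell (-0.97 ± 0.213, adjusted p = 0.00830). The Psme2 call was lost without siCtr 0 d replicate 1 (-0.66), and the change was -0.44 with the trend removed.

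With TGFbeta these 2 genes were again the ones that fell in that list, and none rose (list median 0.016, all genes 0.05). Over all genes tested 8.28% fell and 9.72% rose. Psme1 fell by 0.72 ± 0.193 on the log2 scale (adjusted p = 0.0270), a call lost without any siCtr TGFbeta library (-0.79 without replicate 2, -0.75 without 3) or siIrf1 TGFbeta replicate 1 (-0.65) or 3 (-0.68), with the trend removed (-0.43, and -0.40 with a replicate block too), and in a fit of the compared groups alone (adjusted p = 0.0527). Psme2 fell by 1.02 ± 0.213 (adjusted p = 0.00919), a call lost without siCtr TGFbeta replicate 3 (-1.005).

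In the rest of the proteasome the share that fell at 0 d was near that of all genes. Of 11 other core subunits 2 fell at 0 d (Psmb3 and Psmb4) and none with TGFbeta, beside 15.5% and 8.28% of all genes. Of 17 subunits of the regulatory particle, 3 fell (Psmd2, Psmd3 and Psmd11) and 1 rose (Psmc6) at 0 d, and 1 fell (Psmd11) with TGFbeta. The list medians at 0 d were -0.24 and -0.35. Psmd3, a subunit of the lid, went from 432 ± 53.8 to 220 ± 29.1 CPM at 0 d (-0.97 ± 0.235, adjusted p = 0.0128). Psmc6, one of the ATPases, went from 28.7 ± 0.702 to 69.3 ± 3.56 CPM (1.27 ± 0.273, adjusted p = 0.00787). Neither Psmd3 nor Psmc6 was examined with the length and GC trend removed. With TGFbeta in siCtr cells Psma4 rose (0.61) and Psmb4 fell (-0.64) in the core list, and Psmd8 (0.69) and Psmc6 (0.89) rose in the regulatory particle, beside 16.1% of all genes that rose and 16.3% that fell. No gene of either list was called with TGFbeta in siIrf1 cells.

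**Figure D3:**
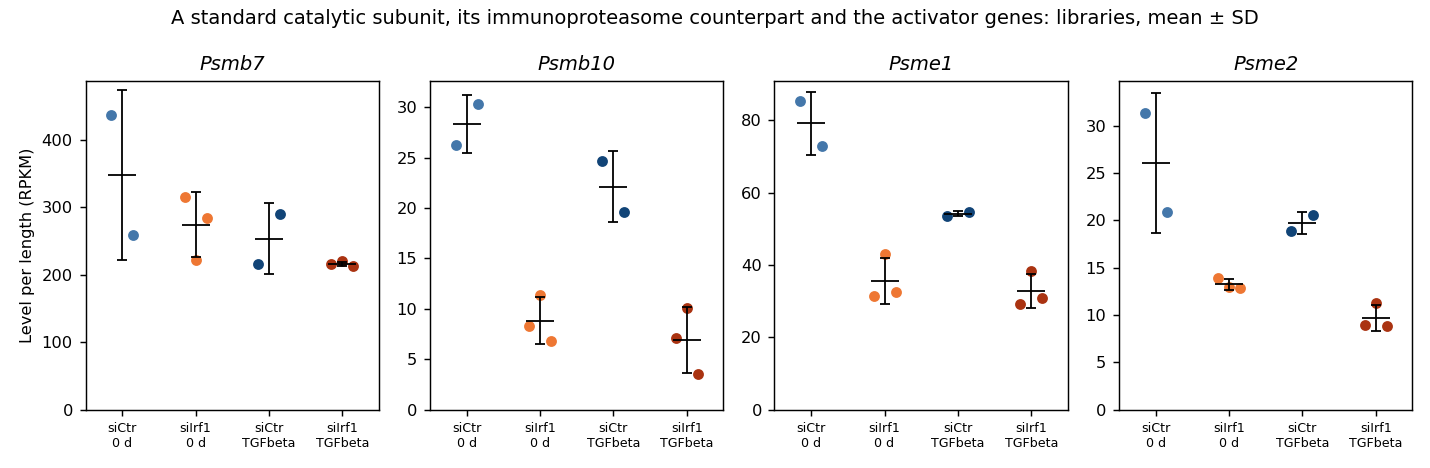
Level per length (RPKM, linear axes from 0) of Psmb7, its immunoproteasome counterpart Psmb10 and the activator genes Psme1 and Psme2 in each library. Points are libraries and bars the group mean ± SD. Psmb10 is at 26.3 to 30.4 RPKM in siCtr 0 d and at 6.85 to 11.4 RPKM in siIrf1 0 d, while the Psmb7 libraries of these groups overlap.

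The ER chaperones and peptide-trimming genes that serve class I assembly were mostly uncalled between the siRNAs. Of 8 genes, 1 rose (Hsp90b1) and 1 fell (Tapbpl) at 0 d, beside 16.3% and 15.5% of all genes. None was called with TGFbeta, where 9.72% of all genes rose and 8.28% fell. Calr (calreticulin), Canx (calnexin), Pdia3 (the loading complex's disulfide isomerase) and Erap1 (the trimming peptidase) were uncalled in both. Tapbpl, a tapasin relative that edits peptides outside the loading complex, was at 33.7 and 28.2 CPM in siCtr 0 d and at 10.3, 9.57 and 7.97 CPM in siIrf1 0 d. It fell (-1.74 ± 0.212, adjusted p = 6.84e-04). Under TGFbeta, Tapbpl was at 15.5 and 18.0 CPM in siCtr and at 13.5, 16.2 and 11.4 CPM in siIrf1, where the groups overlapped.

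Among 17 further class I or class I-like heavy chain genes, 16 were tested. At 0 d, 9 of them fell with the siRNA (Fcgrt, H2-M3, H2-Q2, H2-Q4, H2-Q7, H2-T23, H2-T24, H2-T3 and Hfe) and none rose. Over all genes tested 15.5% fell and 16.3% rose. The list's median was -0.98 beside -0.03 for all genes. H2-T23, which encodes the non-classical Qa-1 chain, was at 8.05 and 9.09 CPM in siCtr 0 d and at 3.11, 3.12 and 2.95 CPM in siIrf1 0 d, and fell (-1.48 ± 0.227, adjusted p = 0.00168). H2-Q2 fell from a mean of 2.03 to 0.638 CPM (-1.66 ± 0.267, adjusted p = 0.00209), with -1.0 when the trend was removed. With TGFbeta 2 fell, Cd1d1 (a lipid-presenting chain) and Hfe (an iron regulator of this fold), and none rose. Over all genes tested 8.28% fell and 9.72% rose. The list's median was -0.08 beside 0.05 for all genes. The Cd1d1 fall (-1.08 ± 0.297, adjusted p = 0.0300) was lost without any siCtr TGFbeta library and without siIrf1 TGFbeta replicate 1 or 2, with values from -1.25 to -0.92 over all alternatives.

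Some regulators of class I transcription were called in each direction. Of 18 tested of 19, 4 fell (Irf2, Stat2, Irf7 and Irf1, the siRNA target) and 3 rose (Creb1, Irf8 and Nfyb) at 0 d. Over all genes tested 15.5% fell and 16.3% rose, and no excess over those shares was tested. The list's median was -0.32 beside -0.03 for all genes. Stat2, a signal carrier of type I interferon, was at 55.3 and 47.8 CPM in siCtr 0 d and at 18.6, 22.4 and 19.0 CPM in siIrf1 0 d, and fell (-1.36 ± 0.194, adjusted p = 0.00126). Irf7, an inducer of interferon genes, was at 6.36 and 6.52 CPM against 1.26, 1.70 and 1.42 CPM, and fell (-2.13 ± 0.259, adjusted p = 6.64e-04). Irf2, a relative of Irf1, fell (-1.09 ± 0.255, adjusted p = 0.0107), a call lost without siCtr 0 d replicate 1 (-0.99). Irf8 rose (1.38 ± 0.368, adjusted p = 0.0189), a call lost without siCtr 0 d replicate 3 (1.14).

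Creb1, whose product binds the cAMP response element, rose at 0 d (1.81 ± 0.267, adjusted p = 0.00148), but not on removal of the length and GC trend (0.27, adjusted p = 0.338). With TGFbeta 2 of these 18 regulators rose (Creb1 and Irf8) and 2 fell (Stat2 and the target Irf1), beside 9.72% and 8.28% of all genes. The Creb1 rise there (0.84 ± 0.254, adjusted p = 0.0450) was lost in 14 of 18 alternatives, with values from 0.086 to 0.95, among them leaving out any siIrf1 0 d or siCtr TGFbeta library or siIrf1 TGFbeta replicate 1 or 3. Irf8 went from a mean of 0.446 to 4.65 CPM there (3.34 ± 0.423, adjusted p = 8.10e-04), and Stat2 fell by 0.93 ± 0.193 on the log2 scale (adjusted p = 0.00931), the latter lost without siCtr TGFbeta replicate 2 (-1.03) or 3 (-0.91). Rfx5 was uncalled between the siRNAs in both conditions. Of 9 interferon receptors, kinases and inhibitors, 2 fell at 0 d (Ifnar2 and Ifngr2) and 1 with TGFbeta (Ifnar1). Over all genes tested 15.5% fell at 0 d and 8.28% with TGFbeta, and no excess over those shares was tested.

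With TGFbeta present, 3 of the 10 genes fell with the siRNA (Tapbp, Tap2 and Psmb10) and none rose. Over all genes tested, 8.28% fell and 9.72% rose in that comparison. The count was 2 to 4 when single libraries were left out. Averaged over both conditions, 6 of the 10 fell (Tapbp, Tap2, Psmb9, Psmb10, H2-K1 and H2-D1), beside 17.4% of all genes that fell and 20.1% that rose. The averaged values were -1.68 ± 0.136 for Tapbp, -2.34 ± 0.195 for Tap2, -1.68 ± 0.264 for Psmb10 and -0.77 ± 0.145 for H2-K1. H2-D1 was at -0.56 ± 0.134 (adjusted p = 0.00866), and not called with the trend removed (-0.14).

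The response to TGFbeta with Irf1 left in place split the class I molecule itself. In siCtr cells 5 of the 10 genes fell (Tap1, Tap2, Psmb9, H2-K1 and H2-D1), 1 rose (B2m), and Tapbp and Psmb10 were not called. Over all genes tested, 16.3% fell and 16.1% rose. Each group holds 2 libraries, and the count fell from 6 to 3 without siCtr TGFbeta replicate 2 and to 2 without replicate 3. It was 4 with the length and GC trend removed together with a replicate block, where Psmb9 (-1.89, adjusted p = 0.0501) and H2-D1 (-0.47, adjusted p = 0.0587) were not called.

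B2m went from 48.9 ± 26.8 to 168 ± 5.11 CPM and rose 3.44-fold (1.78 ± 0.375, adjusted p = 0.00530), with 1.35 without siCtr 0 d replicate 1 and 2.61 without replicate 3. Both siCtr TGFbeta libraries, at 165 and 172 CPM, were above both siCtr 0 d libraries. H2-K1 went from 48.1 ± 2.08 to 20.7 ± 1.33 CPM and fell 2.32-fold (-1.22 ± 0.230, adjusted p = 0.00268), a call lost without siCtr TGFbeta replicate 2 (-1.06). H2-D1 went from 18.1 ± 0.756 to 10.3 ± 0.201 CPM (-0.82 ± 0.211, adjusted p = 0.0140). The H2-D1 call was lost on leaving out any siCtr library (-0.73 and -0.74 without replicates 1 and 3 at 0 d, -0.71 and -0.76 without replicates 2 and 3 with TGFbeta) and without the filter on low counts (-0.73).

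The proportion of light to heavy chain changed with it. Per length, B2m was 0.853 and 2.06 times the sum of H2-K1 and H2-D1 in siCtr 0 d, and 10.7 and 10.4 times that sum in siCtr TGFbeta. In siIrf1 0 d the ratio was 3.14, 2.61 and 3.25. In siIrf1 TGFbeta it was 10.5, 4.31 and 10.8, with replicate 2 apart from the others. Every TGFbeta library was above every 0 d library, and every siIrf1 0 d library was above both siCtr 0 d libraries. These ratios keep the length and GC trend. With it removed, the 0 d differences with the siRNA were -1.06 for B2m, -0.69 for H2-K1 and -0.24 for H2-D1. B2m was then lower by more than either heavy chain, so the order of the siRNA groups at 0 d depends on that setting. B2m has the lowest GC content of the 10 genes. In siIrf1 TGFbeta the ratio was low in the library whose GC index was low (-0.39). Both siCtr TGFbeta libraries had a lower index still (-0.46), with ratios of 10.7 and 10.4. Whether the index bears on the ratio was not tested. The rise of B2m with TGFbeta was 1.65 ± 0.249 with the length and GC trend removed.

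**Figure D4:**
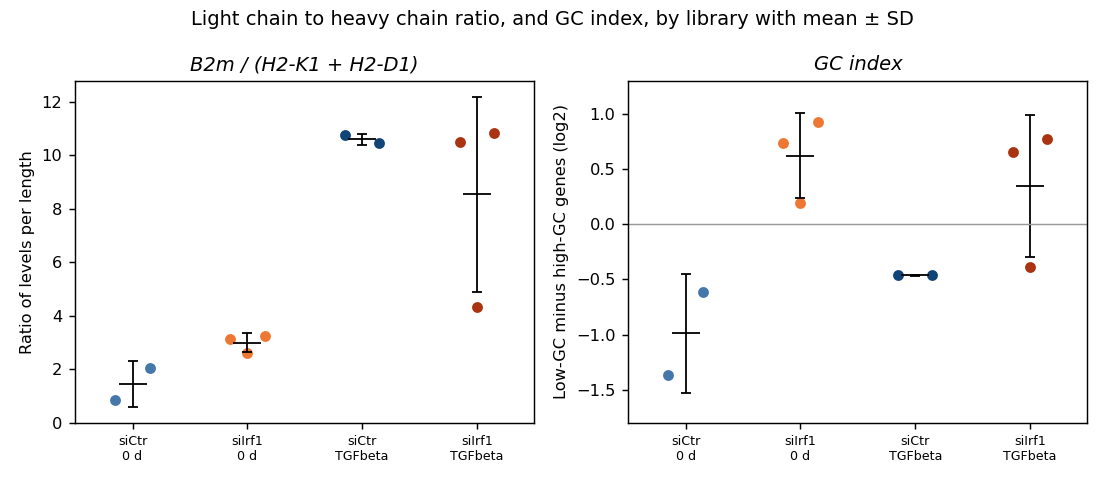
Left, the ratio of B2m to the sum of H2-K1 and H2-D1, each per length, in each library. Right, the GC index of the same libraries (log2, higher where genes of low GC content are higher). Points are libraries and bars the group mean ± SD. The ratio is 0.853 to 3.25 in the 0 d libraries and 4.31 to 10.8 in the TGFbeta libraries, and the index is -1.37 to -0.46 in the siCtr libraries.

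The transporter subunits fell in siCtr cells. Tap1 went from 2.16 ± 0.0544 to 0.837 ± 0.289 CPM (-1.33 ± 0.343, adjusted p = 0.0138), a call lost without replicate 1 of siCtr 0 d (-1.27) and without replicate 3 of siCtr TGFbeta (-0.97). Tap2 went from 5.05 ± 1.04 to 2.45 ± 0.119 CPM (-1.05 ± 0.289, adjusted p = 0.0190). The Tap2 call was lost without replicate 3 of siCtr 0 d (-0.70), without either siCtr TGFbeta library (-0.92 and -1.03 without 2 and 3), and in a fit of the compared groups alone. Tapbp went from 249 ± 20.0 to 187 ± 14.7 CPM (-0.41 ± 0.213, adjusted p = 0.164).

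The immunoproteasome subunits did not move alike. Psmb9 went from 0.743 ± 0.107 to 0.152 ± 0.0741 CPM (-2.18 ± 0.481, adjusted p = 0.00633), a call kept without the filter on low counts (-2.11, adjusted p = 0.0140) and lost without siCtr TGFbeta replicate 3 (-1.78). The change was -2.78 without siCtr TGFbeta replicate 2. Psmb10 went from 36.0 ± 3.66 to 28.1 ± 4.49 CPM (-0.36 ± 0.412, adjusted p = 0.532). The interferon regulator Irf7 fell (-2.08 ± 0.295, adjusted p = 4.47e-04), as did Irf8 (-2.20 ± 0.444, adjusted p = 0.00403), Rfxap and Nfyc. Of the 18 regulators none rose, and the median was -0.27 beside 0.02 for all genes. Over all genes tested 16.3% fell and 16.1% rose, and no difference from those shares was tested.

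Some ER chaperones went the other way. Of 8 loading and ER processing genes 3 rose (Pdia3, Hspa5 and Hsp90b1) and 1 fell (Tapbpl), beside 16.1% and 16.3% of all genes. The list's median was 1.02 beside 0.02. Hspa5, the main ER chaperone BiP, went from 490 ± 182 to 1033 ± 130 CPM (1.08 ± 0.236, adjusted p = 0.00633). The change of Hspa5 was 0.78 without siCtr 0 d replicate 1 and 1.64 without replicate 3, and its call was lost in a fit of the compared groups alone (adjusted p = 0.0547). Pdia3 went from 591 ± 127 to 1161 ± 146 CPM (0.97 ± 0.269, adjusted p = 0.0197), a call lost without replicate 1 of siCtr 0 d (0.81) and without replicate 3 of siCtr TGFbeta (0.91).

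Other heavy chain genes were called in both directions. Of 16 tested, 4 rose (Cd1d1, Fcgrt, H2-T24 and Mr1) and 3 fell (H2-T10, H2-T22 and Hfe), with a median of 0.0056. Over all genes tested 16.1% rose and 16.3% fell, and no excess over those shares was tested. H2-T24 was at 0.432 and 0.424 CPM in siCtr 0 d and at 2.40 and 2.26 CPM in siCtr TGFbeta, and rose (2.44 ± 0.307, adjusted p = 2.13e-04). Hfe went from 6.49 ± 1.81 to 1.75 ± 0.111 CPM and fell (-1.89 ± 0.389, adjusted p = 0.00444), a call lost without siCtr TGFbeta replicate 2 (-1.73). Cd1d1 rose (2.18 ± 0.359, adjusted p = 0.00116).

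In siIrf1 cells 1 of the 10 genes was called with TGFbeta: B2m rose, and none fell. Over all genes tested, 11.6% rose and 9.71% fell. B2m went from 46.6 ± 3.89 to 104 ± 31.0 CPM (1.16 ± 0.301, adjusted p = 0.0201), and every TGFbeta library was above every 0 d library. The call was lost without any siIrf1 0 d library (1.13, 1.13 and 1.23 without 1, 2 and 3) and without siIrf1 TGFbeta replicate 1 (1.06) or 3 (1.01), and was kept with the trend removed (1.44 ± 0.202).

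No other gene of the 10 was called in siIrf1 cells, those that fell in siCtr cells included. H2-K1 went from 20.4 ± 2.64 to 16.9 ± 3.63 CPM (-0.27 ± 0.186, adjusted p = 0.365), and H2-D1 from 10.1 ± 0.257 to 8.43 ± 1.39 CPM (-0.26 ± 0.172, adjusted p = 0.358). Tap2 went from 0.702 ± 0.163 to 0.667 ± 0.126 CPM (-0.06 ± 0.271, adjusted p = 0.914). Tap1 was at -0.51 ± 0.284 (adjusted p = 0.256), Tapbp at 0.31 ± 0.175 (adjusted p = 0.264, and called at 0.52 without siIrf1 0 d replicate 2), Psmb10 at -0.35 ± 0.341 and Psmb9 at 0.11 ± 0.636. None of these 7 differences passed the test with all libraries. Of the 16 other heavy chain genes 6 rose (Cd1d1, Fcgrt, H2-M3, H2-Q2, H2-T23 and H2-T24) and 1 fell (Hfe), beside 11.6% and 9.71% of all genes. The list's median was 0.75 beside 0.02 for all genes.

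The TGFbeta responses of the 2 siRNA groups were then compared directly, as an interaction that shares its libraries with the comparisons above. None of the 8 tested genes was called in edgeR, beside 4.12% of all genes, and 4 had an unadjusted p under 0.05. DESeq2 called 1 of them, H2-K1 (0.92, adjusted p = 0.0313). The edgeR interactions were 0.94 ± 0.294 for H2-K1 (adjusted p = 0.120), 0.72 ± 0.276 for Tapbp (adjusted p = 0.200), 0.99 ± 0.396 for Tap2 (adjusted p = 0.221) and 2.29 ± 0.817 for Psmb9 (adjusted p = 0.167). For B2m it was -0.62 ± 0.471 (adjusted p = 0.522), and -1.45 with a call (adjusted p = 0.0376) without siCtr 0 d replicate 3. The calls in 1 siRNA group and not in the other are therefore not shown to differ. Over all genes the interaction had 368 higher and 173 lower calls, and 628 and 527 after removal of the length and GC trend.

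Across the 10 libraries, log2 levels of some of these genes ran close to each other. Pearson's r was 0.988 for H2-K1 with H2-D1, 0.965 for Tapbp with Tap2, 0.924 for Tap2 with Psmb10 and 0.626 for Tap1 with Tap2. B2m stood apart, with r from -0.69 (Tap1) to 0.126 (Tapbp). These values describe 10 libraries of 4 groups that share depth and GC index, and close copies can share reads. The genes of the whole table most like each one were Tob2 for Tapbp (r = 0.996), Syde1 for Tap2 (0.990), Gsdma2 for Tap1 (0.978), Rnf183 for Psmb9 (0.978) and Uqcr11 for Psmb10 (0.990). They were Pfkm for both H2-K1 (0.993) and H2-D1 (0.990), and Myof for B2m (0.983).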

How the data were processed

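RNA of 10 libraries from NMuMG/E9 cells was sequenced as stranded libraries, per the labels. The authors deposited 1 table of raw read counts per gene with a gene length in bases. The submitters' processing notes name STAR and the build mm10 (GRCm38). The aligner's version, the counting tool and its strand setting: not given in the sources used here. All 10 sample columns were used. Of 24454 Entrez identifiers, 24374 were named from RefSeq (GRCm38.p6) and 7 from GENCODE, and 73 had no match.

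The counts were fitted with edgeR 4.0.16 in R 4.3.3, after TMM normalization and filterByExpr (minimum count 10), with a term per group and a robust quasi-likelihood F test. Benjamini-Hochberg adjustment ran over 13135 genes in each comparison, with a threshold of 0.05 and 6 residual degrees of freedom. SE was obtained as the ratio of the log2 change to the root of its F value. RPKM used the deposited gene length. Scripts were tested on simulated data. The genes, lists and tests were chosen with earlier results of these data known. Named are all 10 genes, Irf1 and called genes of the lists, though not every called gene in every comparison. A fixed set of related genes is named whatever their p, and for each gene the genes most like it over libraries. Irf8, Creb1 and other called list genes given with values were picked after their values were seen. A related gene under this rule is not reported here.

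Alternatives were RLE size factors, no filter, a stricter filter (2 CPM in 3 libraries), DESeq2 1.42.0, the compared groups alone, a replicate block, leaving out each library, and removal of a spline trend (5 df) with gene length and GC content (known for 95% of tested genes), also with the block. No library was a copy of another: chi-square over degrees of freedom between replicates was 24.3 to 305. Deviations of same-numbered libraries correlated at 0.136 to 0.448 in all 3 pairs between siIrf1 0 d and siIrf1 TGFbeta. Over all groups 8 of 12 same-numbered correlations were over 0.1. Differently numbered libraries reached 0.525 (siCtr 0 d replicate 1 with siIrf1 TGFbeta replicate 2). In a group of 2 libraries the deviations mirror each other, so these values cannot settle whether libraries were paired. Sample titles carry a code that goes with the replicate number in every group, and do not say what it means. The main fit had no pairing, and the replicate block was an alternative only.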

Additional observations from a re-analysis of the deposited data

Results flagged for a closer look

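In 3 related genes the response to TGFbeta differed between the siRNAs by a test of the difference itself (interaction in edgeR, adjusted over all genes tested). They were 1 of 8 loading and ER processing genes and 2 of 16 other heavy chain genes tested. No gene of the proteasome, regulator or interferon receptor lists was called in that test. Over all genes tested 4.12% were called, and no excess over that share was tested. Tapbpl, the tapasin relative, had an interaction of 1.45 ± 0.304 (adjusted p = 0.0282): it fell with TGFbeta in siCtr cells (-0.89 ± 0.235, adjusted p = 0.0160), and was at 0.56 ± 0.193 (adjusted p = 0.0649) in siIrf1 cells. The fall in siCtr cells was lost without siCtr 0 d replicate 1 (-0.71), without either siCtr TGFbeta library (-0.69 and -0.92 without 2 and 3), and with the length and GC trend removed together with the replicate block (-0.44, adjusted p = 0.102). The interaction was lost without siCtr 0 d replicate 1 (1.28), any siIrf1 0 d library (1.35 to 1.53), either siCtr TGFbeta library (1.26 and 1.49 without 2 and 3) or replicate 1 of siIrf1 TGFbeta (1.46).

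H2-T23 had an interaction of 1.51 ± 0.322 (adjusted p = 0.0302). It was at 8.57 ± 0.739 CPM in siCtr 0 d, 3.06 ± 0.0927 in siIrf1 0 d, 8.86 ± 0.371 in siCtr TGFbeta and 9.00 ± 2.13 in siIrf1 TGFbeta, so that siIrf1 0 d stood apart. It rose with TGFbeta in siIrf1 cells (1.56 ± 0.208, adjusted p = 4.14e-04). Its interaction was lost in 10 of 17 alternatives: without any siCtr library (1.31 to 1.56), any siIrf1 0 d library (1.49 to 1.53) or siIrf1 TGFbeta replicate 1 (1.54), without the filter on low counts (1.44, adjusted p = 0.0516), and with the trend removed together with the block (1.17, adjusted p = 0.0691).

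Fcgrt, the neonatal Fc receptor, which also pairs with B2m, had an interaction of 2.20 ± 0.485 (adjusted p = 0.0349). It rose in both siRNA groups, by 1.81 ± 0.373 (adjusted p = 0.00445) in siCtr and 4.01 ± 0.333 (adjusted p = 2.19e-05) in siIrf1 cells. Its interaction was lost without either library of siCtr 0 d (2.40 and 1.79 without 1 and 3) or of siCtr TGFbeta (2.25 and 2.03 without 2 and 3), siIrf1 0 d replicate 1 (2.03) or 3 (2.10), and replicate 1 of siIrf1 TGFbeta (2.27).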

How the results depend on the processing

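With the replicate block the called counts of the 10 genes were 7, 3 and 6 for the siRNA at 0 d, with TGFbeta and averaged, 7 for TGFbeta in siCtr, 1 in siIrf1 and 0 for the interaction. The block added Tapbp in siCtr with TGFbeta (-0.57, adjusted p = 0.0384) and changed no other call of these 10 genes. Over all genes, removal of the length and GC trend moved the calls of the siRNA with TGFbeta from 2365 to 3553, of TGFbeta in siIrf1 from 2799 to 4210 and of the interaction from 541 to 1155, and DESeq2 moved the last to 1166 and its count among the 10 genes from 0 to 1. Leaving out single libraries gave 1700 to 5192 genes for the siRNA at 0 d (4175 with all), 762 to 2978 with TGFbeta, 3250 to 6272 averaged (4925), 2297 to 5159 for TGFbeta in siCtr (4267) and 122 to 1590 for the interaction. For the 10 genes it gave 2 to 6 in siCtr with TGFbeta, 0 to 1 in siIrf1 and 0 to 1 for the interaction.

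Signs that changed belonged to small uncalled differences. The Psmb10 interaction (0.0083) was -0.0064 with RLE, -0.060 without a filter, -0.074 with the stricter one, -0.38 with the trend removed, -0.24 with trend and block, -0.0097 in DESeq2 and -0.38 to 0.32 without single libraries. B2m with the siRNA at 0 d was 0.091 with the block and -0.55 to 0.71 without single libraries. Tap1 with the siRNA and TGFbeta was 0.14 with the trend removed, 0.20 with trend and block and -0.44 to 0.27 without single libraries. For Psmb5 and Psmb6 the trend's removal gave 0.30 and 0.21 at 0 d and 0.025 and 0.0028 with TGFbeta, and with the block 0.36 and 0.20 at 0 d. Single libraries moved Psmb7 at 0 d from -0.60 to 0.073, Psmb6 with TGFbeta from -0.29 to 0.071, and TGFbeta in siIrf1 from -0.14 to 0.72 for Psmb9 and -0.25 to 0.14 for Tap2. The cause was not tested. Groups of 2 libraries and counts under 30 per library for Psmb9 limit precision, and where leaving out a library leaves 1, that library is assumed to vary like the other groups.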
